A study of Mus musculus with 6 samples.

Results

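Axon guidance genes of the Eph, ephrin, Slit, Robo and netrin families were followed in the mouse hippocampus after a change of diet. The members are the 45 protein-coding genes of the count table with a family name (Epha, Ephb, Efna, Efnb, Slit, Robo, Ntn, Ntng, Unc5 or Flrt and a number or letter) or the names Dcc, Neo1, Rgma and Rgmb, out of 53715 annotated genes. They comprise 9 EphA and 5 EphB receptors, 5 ephrin-A and 3 ephrin-B ligands, 3 Slit ligands, 4 Robo receptors, 3 netrins, 2 netrin-G genes, Dcc and Neo1, 4 Unc5 receptors, 2 repulsive guidance molecules and 3 Flrt genes. The animals were C57BL/6J mice, an inbred strain, all male and 2 to 3 months old, with no genetic change named in the labels. The mice ate either control food (3 mice) or ketogenic food (3 mice) for 3 weeks, the latter rich in fat and poor in carbohydrate so that blood ketone bodies rise. The 6 libraries are named by diet and replicate number, control 1 to 3 and ketogenic 1 to 3, and each held between 16832240 and 18357792 gene counts.

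Eph receptors are receptor tyrosine kinases whose ligands, the ephrins, are held on the surface of neighbouring cells, ephrin-A by a lipid anchor and ephrin-B by a membrane-spanning stretch. Signals pass into both the receptor cell and the ligand cell. In the hippocampus the system is known for sorting axons during development and for shaping dendritic spines and synaptic plasticity in the adult. Slit proteins are secreted and repel axons through Robo receptors. Netrin 1 attracts axons through Dcc and repels them where Unc5 receptors are present, while Flrt proteins are adhesion molecules that bind Unc5 receptors and latrophilins.

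Members that moved together invite a look at the bases before their start sites. The promoters of 5 of the genes that passed the test described below are therefore shown first. They are those of Epha4, Epha6 and Epha7, which fell, and of Efnb2 and Slit2, which rose. Each is the 250 bases before the first listed RefSeq transcription start, 5′ to 3′ on the gene's own strand, build GRCm38.p6. The regions are chr1:77515089-77515338 (minus strand) for Epha4, chr16:60605532-60605781 (minus strand) for Epha6, chr4:28812881-28813130 (plus strand) for Epha7, chr8:8661243-8661492 (minus strand) for Efnb2 and chr5:47982905-47983154 (plus strand) for Slit2. Capitals mark GC boxes (GGGCGG), the core of the cAMP response element (TGACGT) and TATA boxes (TATAAA), each searched on both strands.
Epha4: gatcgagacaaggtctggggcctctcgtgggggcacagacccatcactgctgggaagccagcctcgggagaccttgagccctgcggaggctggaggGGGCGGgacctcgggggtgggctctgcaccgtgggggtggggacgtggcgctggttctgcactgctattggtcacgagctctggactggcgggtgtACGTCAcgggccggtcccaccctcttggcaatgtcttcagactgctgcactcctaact
Epha6: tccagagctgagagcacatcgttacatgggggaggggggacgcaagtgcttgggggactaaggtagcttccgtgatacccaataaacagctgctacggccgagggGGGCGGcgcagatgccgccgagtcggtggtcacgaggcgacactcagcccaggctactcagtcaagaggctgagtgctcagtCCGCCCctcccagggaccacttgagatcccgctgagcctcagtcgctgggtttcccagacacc
Epha7: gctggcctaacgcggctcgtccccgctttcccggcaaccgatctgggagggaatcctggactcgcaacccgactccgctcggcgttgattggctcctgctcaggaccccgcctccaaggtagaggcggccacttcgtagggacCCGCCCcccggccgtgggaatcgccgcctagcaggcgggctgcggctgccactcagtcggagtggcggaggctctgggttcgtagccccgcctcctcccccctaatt
Efnb2: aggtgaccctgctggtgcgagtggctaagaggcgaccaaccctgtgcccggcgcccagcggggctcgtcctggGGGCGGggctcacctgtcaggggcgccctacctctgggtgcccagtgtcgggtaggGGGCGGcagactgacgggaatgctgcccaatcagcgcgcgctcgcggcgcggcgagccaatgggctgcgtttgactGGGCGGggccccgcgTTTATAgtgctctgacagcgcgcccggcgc
Slit2: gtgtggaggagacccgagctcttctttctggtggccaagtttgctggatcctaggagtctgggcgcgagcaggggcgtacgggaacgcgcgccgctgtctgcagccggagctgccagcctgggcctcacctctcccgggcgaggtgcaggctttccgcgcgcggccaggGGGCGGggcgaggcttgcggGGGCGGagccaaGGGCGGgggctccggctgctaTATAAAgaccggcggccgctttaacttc
A GC box was present in all 5, with 3 copies in Efnb2 and in Slit2, 2 in Epha6 and 1 in Epha4 and in Epha7. Of the genes not shown, Epha10 had 2 GC boxes and Ntn5 had 0, and both were called in all 16 alternative fits described below. Of the promoters of all 27025 genes in the RefSeq table, 32.9% held one. A TATA box was found in Slit2 on the gene's own strand and in Efnb2 on the opposite strand (as TTTATA). Of all promoters 13% held one on either strand. The response element core was found in Epha4, against 6.56% of all promoters. RefSeq promoters were matched by symbol for 38 of the 45 members. Among them a GC box was present in 6 of 8 genes that fell, 5 of 6 that rose and 12 of 22 that did not pass the test. A TATA box was present in 0 of 8, 2 of 6 and 1 of 22, and the response element core in 1 of 8, 0 of 6 and 2 of 22. The E-box (CANNTG), also searched, was present in 4 of 8, 3 of 6 and 11 of 22, against 66% of all promoters. The median GC content was 63.6% in the members and 52% over all genes. These matches describe letters and are no evidence that a factor binds there.

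Of the 45 genes 43 had enough counts to test, and 18 of the 43 (41.9%) differed between the diets, 9 higher and 9 lower with the ketogenic diet. Over all 16478 tested genes the share was 9.67%, with 5.05% higher and 4.62% lower. The falls were mainly in receptors, with 5 EphA receptors, Ephb1, Robo2 and Robo3, and Slit1 besides. They took in 5 of 8 tested EphA, 1 of 5 EphB and 2 of 4 Robo receptors. None of the Unc5 receptors, Dcc or Neo1 was among them. The rises took in the ligands Efna5, Efnb2, Efnb3, Slit2 and Ntn5, and also Ntng1, Flrt1, Unc5d and Epha8. Of the tested ligands, 1 of 4 ephrin-A, 2 of 3 ephrin-B, 1 of 3 Slit and 1 of 3 netrin genes rose. In the 16 alternative fits described below Efna5 was called in 9 and Efnb3 in 5. Each change below is the log2 ratio of ketogenic to control ± its standard error, from edgeR's quasi-likelihood test, with p-values adjusted by Benjamini-Hochberg over the 16478 genes and a threshold of 0.05. The median change of the 43 genes was 0.06, and their median change regardless of sign was 0.30, where all tested genes had -0.01 and 0.16. In 24 of the 43 genes (55.8%) the libraries of the 2 diets were fully separated (13 higher and 11 lower), where 27.6% of all tested genes were (14% higher and 13.6% lower).

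**Figure D1:**
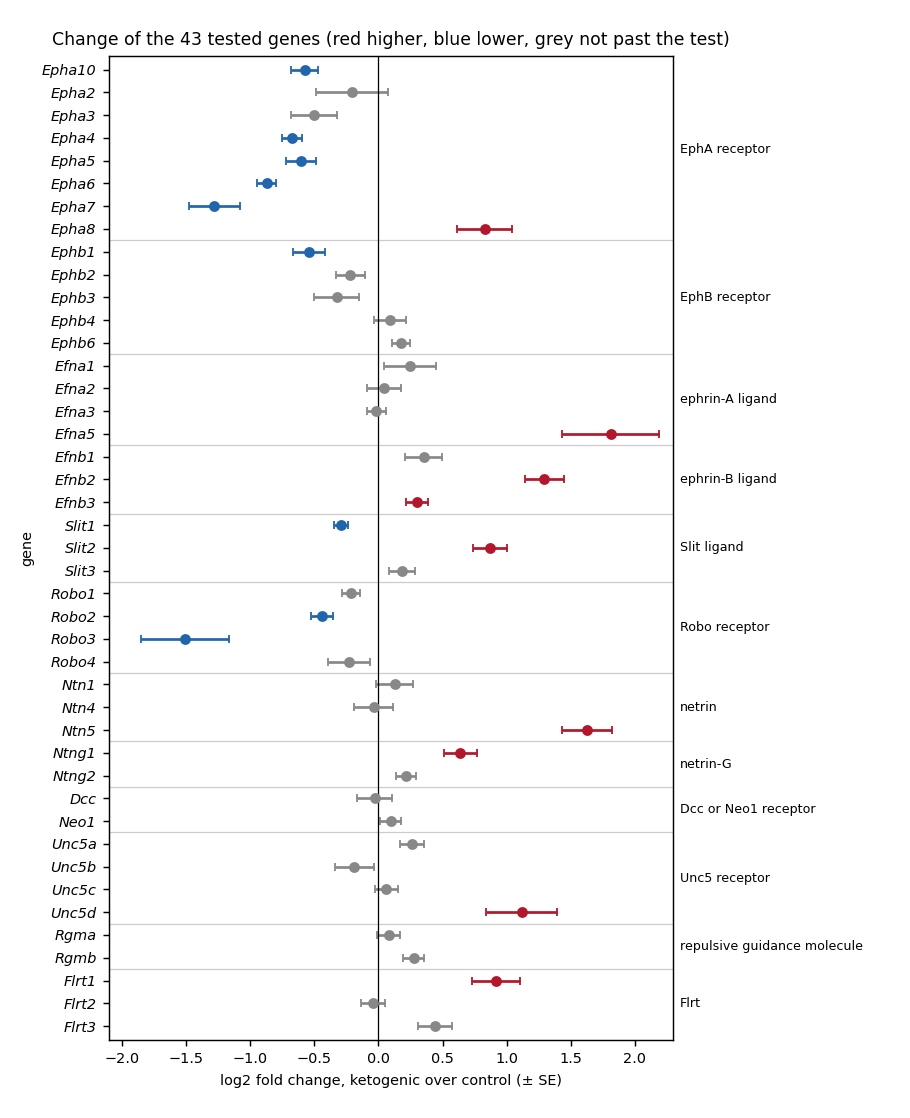
Log2 fold change, ketogenic over control, of the 43 tested genes (points) with its standard error (bars), grouped by role. Genes past the test are red when higher and blue when lower, and grey genes did not pass. EphA and Robo receptors lie mostly left of 0, ephrin-B ligands right of 0, and the range runs from -1.51 for Robo3 to 1.81 for Efna5.

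Levels within a gene are scaled counts (CPM) on TMM-scaled library sizes. Levels between genes are compared in the deposited FPKM, which divide by gene length. The deposited lengths differ widely, with 25433 bases for Slit2, 16528 for Robo2 and 7563 for Robo1. Rankings and shares in FPKM depend on them. In these bulk libraries, fewer cells of a type and less RNA per cell cannot be told apart. The hippocampus label was checked on marker lists. Summed dentate granule cell markers stood at 1215.7, 1403.9 and 1246.3 CPM in the control and 914.4, 777.9 and 686.3 CPM in the ketogenic libraries, and summed CA1 markers between 1197.0 and 1435.7 CPM in all 6, a sum in which 3 of 10 markers were higher and 3 lower. An extraction note names retina, but 12 retina markers summed to between 21.9 and 34.6 CPM, with 1 at 0 in every library and 4 with enough counts to test. Of the other lists, astrocyte and microglia markers did not pass (0 of 7 and 0 of 6). Of 8 oligodendrocyte precursor markers 1 was higher and 1 lower. Further lists moved with the diet. Choroid plexus markers summed to 7221.4, 3747.4 and 796.6 CPM in control 1, 2 and 3 and to between 51.4 and 97.6 CPM in the ketogenic libraries, with 10 of 10 lower. Of 10 markers each, 8 of myelin, 7 of CA3 and 6 of dentate granule cells were lower, while 1 of CA3 was higher. Among 10 interneuron markers 8 were higher. In the mural and fibroblast-like list 6 of 10 were higher, namely Dcn, Lum, Col1a1, Col1a2, Col3a1 and Slc6a13. Pdgfrb, Acta2, Rgs5 and Kcnj8 of that list did not pass. Of 9 markers of subiculum and deep cortex 5 were higher and 1 lower, and their sum went from between 284.6 and 336.7 to between 409.1 and 461.0 CPM. The summed interneuron level went from between 609.5 and 613.5 to between 865.6 and 1131.0 CPM, the mural and fibroblast-like level from between 168.5 and 241.9 to between 365.6 and 428.2 CPM. The part of these shifts in the results below was not tested.

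EphA receptors made up the largest group of falls. Of 9 genes 8 were tested, of which 5 fell, 1 rose and 2 did not pass. Their summed level was 120.8, 123.7 and 119.8 FPKM in the control libraries and 81.8, 67.3 and 63.9 FPKM in the ketogenic libraries. Epha4, the most abundant EphA receptor here and one known to act at dendritic spines, made up 47.5% ± 1.96 of that sum with the control and 51.1% ± 2.54 with the ketogenic diet (SD, n = 3 each). Epha4 (ENSMUSG00000026235, chromosome 1, 77367185 to 77515088, minus strand; positions here and below are GRCm38) had 487.5, 465.6 and 450.9 CPM in control 1, 2 and 3. In ketogenic 1, 2 and 3 it had 325.4, 275.3 and 278.6 CPM. All ketogenic libraries lay below all control libraries, and the change was -0.67 ± 0.07 (adjusted p = 0.00128).

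Epha7 and Epha6 had larger fitted changes than Epha4, a difference that was not tested. Epha7 (ENSMUSG00000028289, chromosome 4, 28813131 to 28967499, plus strand) stood at 231.6, 265.3 and 225.8 CPM with the control diet and at 138.3, 89.9 and 68.9 CPM in ketogenic 1, 2 and 3. Ketogenic 3 was lowest and ketogenic 1 highest of the ketogenic libraries, which spread more widely than the controls without reaching them. The fall was -1.28 ± 0.20 (adjusted p = 0.00361), and the share of Epha7 in the summed EphA level went from 19.9% ± 1.39 to 13.7% ± 3.07. Epha6 (ENSMUSG00000055540, chromosome 16, 59653483 to 60605531, minus strand) had 92.5, 95.1 and 96.1 CPM with the control diet and 56.1, 48.6 and 50.2 CPM with the ketogenic diet, tight in both groups and well apart. Its change was -0.87 ± 0.07 (adjusted p = 0.000541), the lowest adjusted p of the 43 genes. Antisense gene Gm9017 shares 2.02% of the exonic bases of Epha6 and stood at 1.12 to 3.49 CPM.

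Epha5 (ENSMUSG00000029245, chromosome 5, 84054761 to 84417382, minus strand) fell from 159.3, 181.6 and 185.3 CPM to 135.5, 117.1 and 93.3 CPM, a change of -0.61 ± 0.12 (adjusted p = 0.0117). Its groups did not overlap, and ketogenic 1 was again the nearest to the controls. Epha10, whose product lacks kinase activity (ENSMUSG00000028876, chromosome 4, 124880899 to 124917800, plus strand), fell from 48.4, 54.1 and 60 CPM to 39.8, 36.5 and 32.5 CPM. That change was -0.58 ± 0.10 (adjusted p = 0.0074), with no overlap. Epha3 had between 15 and 16.6 CPM with the control diet and 14.3, 10 and 8.49 CPM in ketogenic 1, 2 and 3, a change of -0.50 ± 0.18 that did not pass (adjusted p = 0.117). Epha2 stood at -0.21 ± 0.28 (adjusted p = 0.731), at 1.18 to 2 CPM. Epha1 was below the filter, with 8 to 17 counts per control library and 4 to 9 per ketogenic library.

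Epha8 was the EphA receptor that rose, at a low level (ENSMUSG00000028661, chromosome 4, 136929419 to 136956816, minus strand). It had 2.6, 2.6 and 2.97 CPM in the control and 3.83, 5.35 and 5.36 CPM in the ketogenic libraries, without overlap, a change of 0.83 ± 0.21 (adjusted p = 0.0369). Of the 16 alternative fits this call held in 7, over adjusted p from 0.014 to 0.357, and it was lost without control 1 (0.80, adjusted p = 0.0952), control 2 (0.80, 0.129), ketogenic 2 (0.75, 0.157) or ketogenic 3 (0.75, 0.119). It was also lost with limma-voom (adjusted p = 0.0523) and with limma on FPKM offset by 0.1 or by 1 (adjusted p = 0.0644 and 0.0584), the last at a change of 0.36. With a replicate block (0.82, adjusted p = 0.0525) and without control 1 and 2 together (0.71) the call of Epha8 was lost too. Epha5 did not pass without control 2 (-0.58, adjusted p = 0.0556) or ketogenic 2 (-0.62, 0.0591), over a range of 8.27e-10 to 0.0715. Epha3 passed without ketogenic 1 (-0.75, adjusted p = 0.0129) and with no filter (adjusted p = 0.0232), over a range of 0.0129 to 0.333. With control 1 and 2, where choroid plexus markers were highest, left out together, Epha4, Epha6 and Epha10 kept their calls. Epha7 stood at -1.19 (adjusted p = 0.0599, the highest of a range from 1.03e-25) and Epha5 at -0.68 (0.0715).

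**Figure D2:**
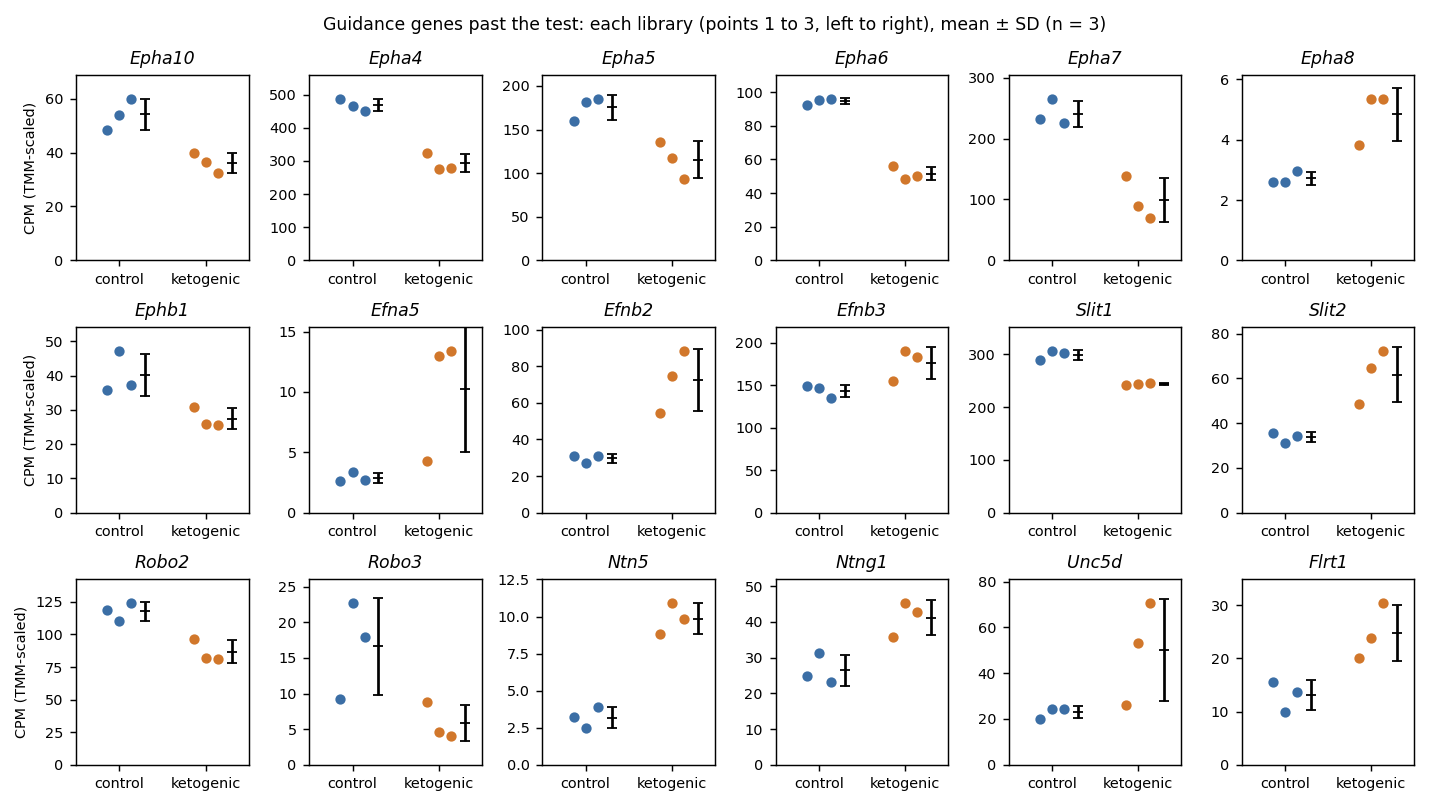
CPM of the 18 genes past the test in each library (points, replicates 1 to 3 from left to right; blue control, orange ketogenic), with mean ± SD (n = 3) as black bars and every axis starting at 0. Ketogenic 1 lies nearest to the control mean of the ketogenic libraries in 17 of the 18 genes, and the diets overlap in none of them.

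Of the EphB receptors, 5 genes, all tested, 1 fell and 4 did not pass, and the summed level was 34.2 to 36.6 FPKM with the control and 34.3 to 35.7 FPKM with the ketogenic diet. Ephb1 (ENSMUSG00000032537, chromosome 9, 101922128 to 102354693, minus strand) fell from 35.8, 47.2 and 37.3 CPM to 30.9, 25.8 and 25.7 CPM. Control 2 was the highest library, and all ketogenic libraries were below all controls, with a change of -0.54 ± 0.12 (adjusted p = 0.0218). Ephb6, a receptor without kinase activity, was the most abundant EphB gene per length. It had 83, 72.5 and 76.5 CPM in the control and 84.7, 89.9 and 87.1 CPM in the ketogenic libraries. The groups did not overlap, but the change of 0.17 ± 0.07 did not pass (adjusted p = 0.173). Ephb2, which takes part in excitatory synapse assembly, stood at -0.22 ± 0.11 (adjusted p = 0.293), Ephb3 at -0.32 ± 0.18 (0.320) and Ephb4, known from blood vessels, at 0.09 ± 0.13 (0.731).

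The call of Ephb1 was lost without control 2 (-0.41, adjusted p = 0.0910), ketogenic 2 (-0.50, 0.112) or ketogenic 3 (-0.50, 0.0763). It was also lost with limma on FPKM offset by 1 or by 0.1 (adjusted p = 0.0602 and 0.0555) and without control 1 and 2 together (-0.44, 0.207), over a range of 8.73e-05 to 0.207.

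Among the ephrin-A ligands Efna5 rose and the other tested genes did not pass. Efna5 (ENSMUSG00000048915, chromosome 17, 62604184 to 62881317, minus strand), a repellent for EphA-bearing axons, had 2.6, 3.37 and 2.72 CPM in the control libraries. In ketogenic 1, 2 and 3 it had 4.26, 13 and 13.4 CPM, so that ketogenic 1 was close to the controls and the other ketogenic libraries were far above them. The change was 1.81 ± 0.38 (adjusted p = 0.0151), 3.51-fold, with no overlap. Its share of the summed ephrin-A level rose from 1.9%, 2.67% and 2.11% to 3.42%, 8.85% and 9.16%. Efna3, the most abundant ephrin-A gene and known from astrocytes as a partner of EphA4, stood at 60.4, 54.9 and 59.5 CPM in the control and 54.6, 59.9 and 58.2 CPM in the ketogenic libraries. The diets overlapped in Efna3, with a change of -0.02 ± 0.07 (adjusted p = 0.927). Efna1 stood at 0.25 ± 0.20 (adjusted p = 0.531) and Efna2 at 0.04 ± 0.13 (0.891). Efna4 was below the filter, with 5 to 13 counts per control and 3 to 10 per ketogenic library.

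The call of Efna5 was lost without control 2 (1.93, adjusted p = 0.0547), ketogenic 2 (1.60, 0.0800) or ketogenic 3 (1.56, 0.0548), and without control 1 and 2 together (1.90, 0.161). It was lost as well with limma-voom (1.62, adjusted p = 0.0778) and with limma on FPKM offset by 0.1 or by 1 (1.53 and 0.96, adjusted p = 0.0588 and 0.0729), over a range of 3.56e-11 to 0.161.

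Ephrin-B ligands went up, 2 of 3 past the test. Efnb2 (ENSMUSG00000001300, chromosome 8, 8617434 to 8661242, minus strand), a ligand of EphB receptors and of EphA4 that is known from vessels and synapses, had 31.1, 26.9 and 30.9 CPM in control 1, 2 and 3. It reached 54.6, 74.9 and 88.4 CPM in ketogenic 1, 2 and 3. Every ketogenic library was above every control, with ketogenic 3 the highest, and the change was 1.29 ± 0.15 (adjusted p = 0.00147), 2.45-fold. Efnb2 was called in all 16 alternatives (adjusted p from 1.86e-22 to 0.0352). Its share of the summed ephrin-B level rose from 8.16% ± 0.75 to 14.9% ± 1.96.

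Efnb3 (ENSMUSG00000003934, chromosome 11, 69554092 to 69560205, minus strand), the most abundant ephrin-B ligand, had 148.4, 146.4 and 134.5 CPM in the control and 155.1, 190.1 and 183.5 CPM in the ketogenic libraries. Ketogenic 1 lay just above the highest control, and the change was 0.30 ± 0.08 (adjusted p = 0.0475). This call held in 5 of 16 alternatives (range 0.00282 to 0.222). It was lost without control 1 (0.33, adjusted p = 0.0725), control 2 (0.31, 0.129), control 3 (0.26, 0.105), ketogenic 2 (0.24, 0.222) or ketogenic 3 (0.27, 0.141), without control 1 and 2 together (0.39, 0.169), with a filter at 1 CPM (0.0508), with limma-voom (0.0606) and with limma on FPKM offset by 1 or by 0.1 (0.0837 and 0.0822). Efnb1 stood at 0.35 ± 0.15 (adjusted p = 0.177), between 11.5 and 13.7 CPM with the control and 13.4 and 18.5 CPM with the ketogenic diet.

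**Figure D3:**
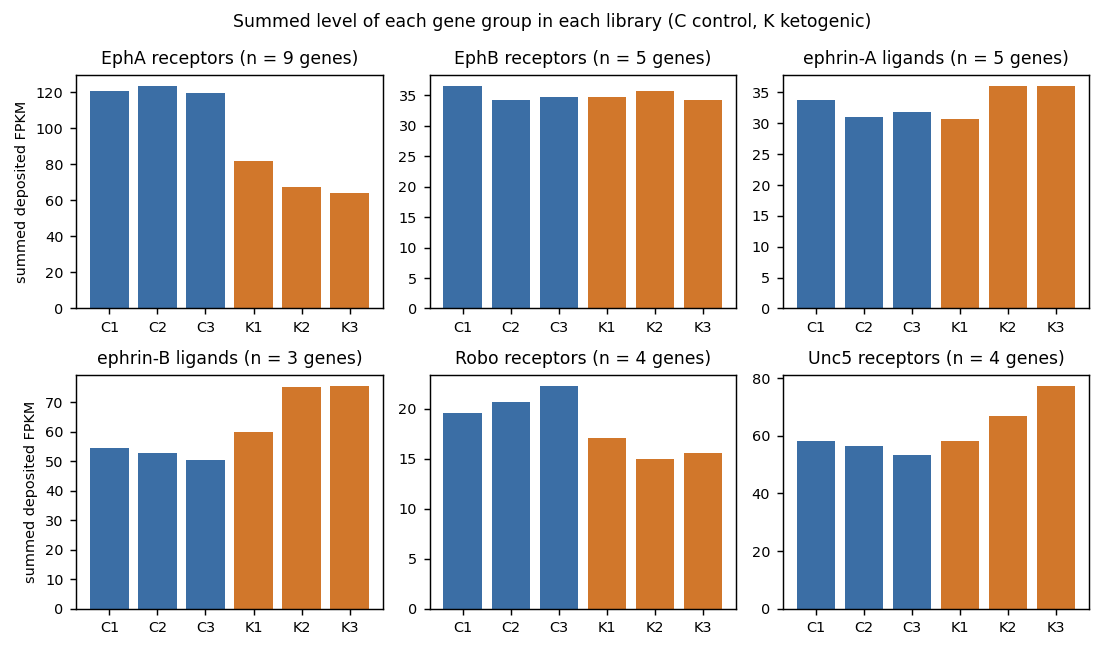
Summed deposited FPKM of 6 of the gene groups in each library (bars; blue control C1 to C3, orange ketogenic K1 to K3), axes starting at 0. The EphA sum is lower in all ketogenic libraries (63.9 to 81.8) than in all controls (119.8 to 123.7), and the ephrin-B sum is higher (60.1 to 75.6 against 50.4 to 54.7), as a description without a test.

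The Slit ligands split. Slit1 (ENSMUSG00000025020, chromosome 19, 41600257 to 41743665, minus strand), a repellent expressed by neurons and the most abundant Slit gene here, had 288.7, 306.4 and 301.7 CPM in the control and 241.5, 244.4 and 245.1 CPM in the ketogenic libraries. The ketogenic libraries lay close together below the controls, and the change was small at -0.29 ± 0.06 (adjusted p = 0.0088). Slit2 (ENSMUSG00000031558, chromosome 5, 47983138 to 48307733, plus strand), its secreted relative, rose from 35.7, 31.3 and 34.2 CPM to 48.4, 64.6 and 72.3 CPM. Ketogenic 1 was the lowest of the ketogenic libraries and still above every control, and the change was 0.87 ± 0.13 (adjusted p = 0.00349). Per length Slit2 remained the lower one, at 2.04% ± 0.17 of the summed Slit level with the control and 4.12% ± 0.624 with the ketogenic diet. Slit3 stood at 0.18 ± 0.10 (adjusted p = 0.320), with overlapping groups.

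Slit1 did not pass without control 2 (-0.28, adjusted p = 0.0542), ketogenic 2 (-0.30, 0.0583) or control 1 and 2 together (-0.31, 0.115), over a range of 0.000475 to 0.115. Slit2 lost its call without control 1 and 2 together (0.85, adjusted p = 0.0729, the highest of a range from 1.47e-12), and with limma on log2(FPKM + 1) its change was 0.55 (0.0357), while Slit3 passed without ketogenic 1 (0.30, 0.0310, the lowest of a range up to 0.763).

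Of 4 Robo receptors 2 fell and 2 did not pass. Robo2 (ENSMUSG00000052516, chromosome 16, 73892306 to 74411825, minus strand; its deposited start or end differs from GENCODE M21), a Slit receptor of neurons, had 119.0, 110.1 and 124.0 CPM in the control and 96.8, 81.9 and 81.5 CPM in the ketogenic libraries. The groups did not overlap, and the change was -0.44 ± 0.08 (adjusted p = 0.00954). Robo3 (ENSMUSG00000032128, chromosome 9, 37415669 to 37433246, minus strand), known for its part in axons that cross the midline, had 9.29, 22.7 and 18 CPM in control 1, 2 and 3 and 8.79, 4.67 and 4.07 CPM in ketogenic 1, 2 and 3. Control 1 and ketogenic 1 nearly met, and the change was -1.51 ± 0.34 (adjusted p = 0.0218). Robo1, the most abundant Robo gene per length, had 70.8, 71 and 76.2 CPM in the control and 63, 60.2 and 64.9 CPM in the ketogenic libraries. Its groups were apart, at -0.21 ± 0.07, but it did not pass (adjusted p = 0.0835). Robo4, a receptor of endothelial cells that lies next to Robo3 on chromosome 9 (37401897 to 37415115, plus strand), stood at -0.23 ± 0.16 (adjusted p = 0.459), and 6 endothelial markers summed to between 261.5 and 284.6 CPM in all libraries with 0 of 6 past the test.

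Robo2 lost its call without ketogenic 2 (-0.40, adjusted p = 0.0644) and without control 1 and 2 together (-0.52, 0.0631), over a range of 1.14e-05 to 0.0644. The call of Robo3 was lost without control 2 (-1.22, adjusted p = 0.0976), ketogenic 2 (-1.37, 0.113) or ketogenic 3 (-1.31, 0.0769) and with limma on FPKM offset by 1 or by 0.1 (-0.86 and -1.39, adjusted p = 0.0671 and 0.0616), over a range of 2.38e-11 to 0.113.

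Netrin genes were low, and Ntn5 rose among them. Ntn5 (ENSMUSG00000070564, chromosome 7, 45684022 to 45694556, plus strand) had 3.19, 2.48 and 3.87 CPM with the control diet and 8.84, 10.9 and 9.85 CPM with the ketogenic diet. The ketogenic values lay close together, each above the highest control, and the change was 1.63 ± 0.19 (adjusted p = 0.00148), 3.09-fold. It was called in all 16 alternatives (adjusted p from 6.77e-11 to 0.0304). Per length Ntn5 went from 1.43 to 4.41 FPKM on average, below Ntn4 with the control diet (3.25 FPKM) and above it with the ketogenic diet (3.17 FPKM). Sec1 on the opposite strand shares 23.4% of the exonic bases of Ntn5, and with the strand setting unknown the genes may share reads there. Sec1 had 0.769, 3.01 and 1.88 CPM in the control and 3.88, 4.33 and 1.95 CPM in the ketogenic libraries, at 0.84 (adjusted p = 0.293). Ntn4, the most abundant netrin per length over all 6 libraries and a basement membrane protein, had 13.1, 13.3 and 10.3 CPM in the control and 13.3, 10 and 12.6 CPM in the ketogenic libraries, which overlap, at -0.04 ± 0.15 (adjusted p = 0.920). Ntn1, the classical Dcc ligand, stood at 0.13 ± 0.14 (adjusted p = 0.671), between 10.9 and 15.2 CPM.

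The netrin-G genes encode lipid-anchored relatives of netrins that bind NGL proteins at synapses and do not bind Dcc. Ntng1 (ENSMUSG00000059857, chromosome 3, 109780040 to 110144011, minus strand) rose from 24.8, 31.3 and 23.2 CPM to 35.7, 45.2 and 42.6 CPM, with no overlap, a change of 0.64 ± 0.13 (adjusted p = 0.0134). Ntng2, the more abundant gene, had 42.7, 47.5 and 43.1 CPM in the control and 48.8, 53.2 and 52.4 CPM in the ketogenic libraries. Its groups were apart too, yet the change of 0.21 ± 0.08 did not pass (adjusted p = 0.129). On the same strand 6530402F18Rik shares 13.98% of the exonic bases of Ntng2, and the genes may share reads there. 6530402F18Rik stood at 16.3 to 22.7 CPM, at 0.06 (adjusted p = 0.844). Markers of thalamus and habenula, where Ntng1 is also abundant, were higher in 3 and lower in 1 of 9 tested and summed to 359.3, 381.1 and 422.1 CPM in the control and 419.2, 406.4 and 418.2 CPM in the ketogenic libraries. Leaving out ketogenic 2 ended the call of Ntng1 (0.56, adjusted p = 0.0824, the highest of a range from 2.56e-06).

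Of the netrin receptors Unc5d rose, and Dcc, Neo1 and the other Unc5 genes did not pass. Unc5d (ENSMUSG00000063626, chromosome 8, 28646717 to 29219636, minus strand) had 20.1, 24.5 and 24.4 CPM in control 1, 2 and 3 and 26.3, 53.2 and 70.6 CPM in ketogenic 1, 2 and 3. Ketogenic 1 was just above the controls while ketogenic 3 was far above, and the change was 1.12 ± 0.28 (adjusted p = 0.0316). Unc5a, the most abundant Unc5 gene, had 203.7, 186.6 and 180.9 CPM in the control and 200.0, 224.5 and 259.6 CPM in the ketogenic libraries. Ketogenic 1 fell within the controls, and the change of 0.26 ± 0.09 did not pass (adjusted p = 0.114). Unc5b stood at -0.19 ± 0.15 (adjusted p = 0.532) and Unc5c at 0.06 ± 0.09 (0.752). Dcc, the attractive netrin receptor, was at -0.03 ± 0.14 (adjusted p = 0.934), between 17.6 and 23.9 CPM. Neo1, which encodes neogenin, a receptor for netrins and for repulsive guidance molecules, had 105.2, 109.7 and 113.5 CPM in the control and 103.9, 118.1 and 129.1 CPM in the ketogenic libraries. Its groups overlapped, at 0.10 ± 0.08 (adjusted p = 0.551).

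The call of Unc5d held in 7 of 16 alternatives (range 1.06e-12 to 0.301) and was lost without control 1 (1.03, adjusted p = 0.0848), control 2 (1.17, 0.0974), ketogenic 2 (1.07, 0.124) or ketogenic 3 (0.78, 0.101), without control 1 and 2 together (1.03, 0.301), with DESeq2 (0.0563), with limma-voom (0.0847) and with limma on FPKM offset by 1 or by 0.1 (0.118 and 0.109). Unc5a passed without ketogenic 1 (0.34, adjusted p = 0.0310) and with no filter (0.0117), over a range of 0.0117 to 0.328.

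Flrt1 rose among the Flrt genes, and the repulsive guidance molecules did not pass. Flrt1 (ENSMUSG00000047787, chromosome 19, 7092014 to 7105729, minus strand; its deposited start or end differs from GENCODE M21) had 15.6, 9.99 and 13.7 CPM in the control and 20.1, 23.9 and 30.4 CPM in the ketogenic libraries. All ketogenic libraries were above the controls, and the change was 0.92 ± 0.19 (adjusted p = 0.0135). Flrt3, the most abundant Flrt gene per length over all 6 libraries (with the control diet Flrt2 was higher, at 7.26 against 6.38 FPKM), had 32.5, 30.3 and 31 CPM in the control and 34.9, 40.2 and 52.4 CPM in the ketogenic libraries. The groups did not overlap, and the change of 0.44 ± 0.13 did not pass (adjusted p = 0.0667). Flrt2, a ligand of Unc5d, stood at -0.04 ± 0.09 (adjusted p = 0.848). Rgmb, the more abundant repulsive guidance molecule, had 58, 58.6 and 59.2 CPM in the control and 63.2, 73.4 and 76 CPM in the ketogenic libraries. It too was separated without passing, at 0.28 ± 0.08 (adjusted p = 0.0605), and Rgma stood at 0.08 ± 0.09 (adjusted p = 0.678).

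Flrt1 did not pass without control 2 (0.75, adjusted p = 0.0565), ketogenic 2 (0.94, 0.0577) or control 1 and 2 together (0.85, 0.102), over a range of 5.35e-08 to 0.102. Flrt3 and Rgmb passed without ketogenic 1 (0.56 and 0.35, adjusted p = 0.0188 and 0.0161), with DESeq2 (0.0169 and 0.0462) and with no filter (0.00164 and 0.0303), and Rgmb with upper-quartile scaling (0.0463), over ranges of 0.00164 to 0.362 and 0.0161 to 0.401.

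The ketogenic libraries differed among themselves in these genes. Ketogenic 1 was the nearest of the 3 to the control mean in 17 of the 18 genes past the test, and in 66.6% of the 1593 genes past the test in all. In the same libraries the summed dentate markers were 914.4 CPM in ketogenic 1 and 777.9 and 686.3 CPM in ketogenic 2 and 3, and the summed interneuron markers 865.6, 967.6 and 1131.0 CPM. Subiculum and mural and fibroblast-like sums also rose from ketogenic 1 to 3. The sums of CA3 (1090.4, 1023.2 and 1155.1 CPM), myelin (3960.2, 2899.4 and 3390.4 CPM) and choroid plexus markers (90.8, 51.4 and 97.6 CPM) did not run in order. The part of these levels in the spread was not tested. Of all 1593 called genes, 1293 kept their calls without ketogenic 1, 531 without ketogenic 2, 657 without control 2 and 843 without ketogenic 3. Without ketogenic 1 all 18 member calls were kept and 23 members passed, where 9.77% of all tested genes did. Without ketogenic 2, 7 of the 18 member calls were kept, in a fit where 3.19% of all genes passed. These percentages count genes that passed, not calls that were kept. Without control 2, 9 were kept (4.02% of all genes passed), and without ketogenic 3, 12 (5.24%). Without control 1 and 2 together 7 were kept (1.64%).

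**Figure D4:**
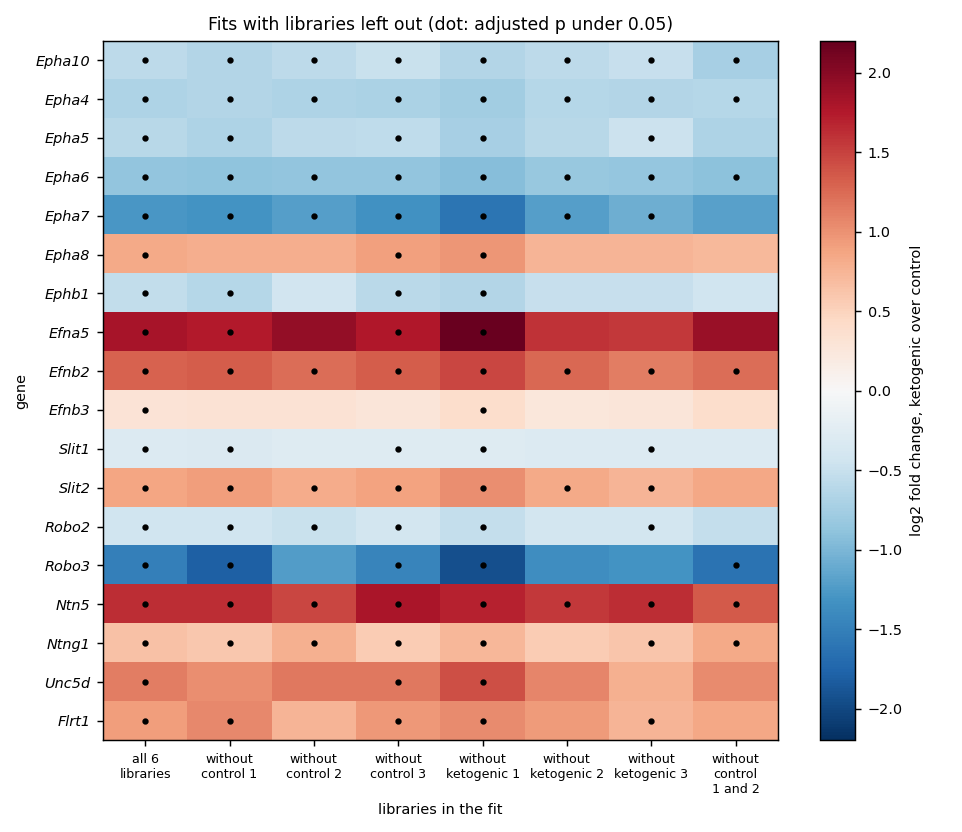
Log2 fold change (colour), ketogenic over control, of the 18 genes past the test, fitted with all libraries and with libraries left out, where dots mark adjusted p under 0.05. Every gene keeps its direction in every column, and Epha4, Epha6, Epha10, Efnb2 and Ntn5 keep their dots throughout.

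Partners of these receptors and ligands changed in part. Of 84 listed partner genes, all tested, 8 were higher and 13 lower, with a median change of -0.04. Over all tested genes 9.67% passed, 5.05% higher and 4.62% lower, and the counts in the partner lists below stand beside those shares as a description. The 4 teneurins, cell surface ligands of latrophilins, all rose. Tenm1 went from 28.7, 34.5 and 34.9 CPM to 55.1, 70.4 and 76.7 CPM (1.04 ± 0.13, adjusted p = 0.00154). Tenm4 went from 107.2, 94.2 and 95.2 to 143.7, 179.6 and 194.0 CPM (0.80 ± 0.11, adjusted p = 0.00207). Both were separated by diet, as were Tenm2 at 0.64 ± 0.09 (adjusted p = 0.00279) and Tenm3 at 0.38 ± 0.09 (0.0251). None of the other 12 binding partners of netrin-G, Flrt and repulsive guidance proteins passed, the latrophilin genes Adgrl1, Adgrl2 and Adgrl3 and the NGL genes Lrrc4, Lrrc4b and Lrrc4c included.

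Among 30 genes of Eph and ephrin signalling 5 fell and 1 rose. Kalrn, which encodes a GTPase exchange factor of dendritic spines, went from 880.2, 974.0 and 832.0 to 642.7, 603.4 and 536.6 CPM (-0.59 ± 0.08, adjusted p = 0.0026). Chn1, a Rac-inactivating protein that acts after EphA4, went from 866.9, 859.1 and 890.4 to 715.7, 592.1 and 570.5 CPM (-0.48 ± 0.08, adjusted p = 0.00666). Both lay lower in every ketogenic library. The adaptor gene Nck2 fell by 0.33 (adjusted p = 0.0236), the kinase gene Src by 0.27 (0.0307), and Grip1, whose product binds ephrin-B tails, rose by 0.52 (0.0149). Of 21 genes of Slit and Robo signalling 6 fell and 1 rose. Nell2, which encodes a Robo3 ligand, went from 991.0, 978.9 and 947.9 to 743.3, 724.2 and 755.6 CPM (-0.39 ± 0.06, adjusted p = 0.00279), clearly apart. Arhgap39, a Robo-binding GTPase regulator, stood at -0.46 (adjusted p = 0.00854), the Slit-binding proteoglycan gene Gpc1 at -0.41 (0.0248), the actin regulator Cap1 at -0.29 (0.0272) and Srgap2 at 0.24 (0.0403). Of 17 genes of netrin, Dcc and Unc5 signalling, Elmo1 (0.48, adjusted p = 0.0159) and Trim67 (0.77, 0.0189) rose, and Dapk1 (-0.36, 0.0307) and Bcar1 (-0.32, 0.0357) fell.

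Of these 18 named partner genes Tenm1 and Tenm4 were called in all 16 alternatives. Kalrn, Nell2 and Tenm2 lost their calls without control 1 and 2 together (adjusted p = 0.0586, 0.0746 and 0.0846), where 3 of the 21 partner calls were left. Arhgap39 and Chn1 lost theirs without ketogenic 2 (adjusted p = 0.0608 and 0.0517), Chn1 also without control 1 and 2 together (0.0757). Without ketogenic 2 the calls of the other 11 were lost as well (adjusted p from 0.0618 for Elmo1 to 0.157 for Bcar1). Without control 2 those of 10 of the 11, all but Dapk1, were lost (from 0.0600 for Gpc1 to 0.152 for Bcar1).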

How the data were processed

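Hippocampal mRNA of 6 mice, 3 per diet, was sequenced from Illumina libraries, per the labels' protocols. The authors deposited 2 tables over Ensembl genes and libraries, one of raw counts and one of FPKM values. The submitters' processing notes name CASAVA, featureCounts 1.5.0-p3, DESeq2 1.10.1 and mm9. However, 97.08% of the deposited gene positions equal those of GENCODE M21, so coordinates were taken as GRCm38. Aligner and strand setting, not given in the sources used here, could not be checked, and antisense or overlapping genes may share reads. The deposited FPKM equal count over length and over 1 size per library, 0.9868 to 1.023 times its total count.

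The test was edgeR 4.0.16 in R 4.3.3 on the deposited counts (filterByExpr, TMM, quasi-likelihood F-test, diet alone as term, Benjamini-Hochberg over 16478 genes, threshold 0.05). Standard errors are |log2 fold change| divided by √F, and their median was 0.13. CPM used TMM-scaled library sizes. On counts simulated for this comparison (16478 genes), 43 of 96 genes changed 1.5-fold and 75 of 99 changed 2-fold were recovered, with 16 false calls. The simulation used the fitted dispersions and changed far fewer genes than were called in the data, so these rates need not hold there. The 16 alternative fits were RLE or upper-quartile scaling, no filter or a floor at 1 CPM on average, limma-voom, DESeq2 1.42.0, limma 3.58.1 on FPKM (log2, offset 1 or 0.1), a fit with a replicate block, 6 fits without 1 library, and a fit without control 1 and 2 together. Libraries of one diet differed beyond counting noise (chi-square per degree of freedom 6.26 to 18.9). The labels number the mice but name no litter or cage. Members, partner lists and marker lists were chosen with earlier results of these data known. Every member is named or counted, and of each partner list up to 4 genes past the threshold per direction, by smallest p.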

Additional observations from a re-analysis of the deposited data

How the results depend on the processing

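Over 16 alternative fits, 5 of the 18 member calls were kept in all, and 20 of the 25 members that did not pass were called in none. At a threshold of 0.01 the calls were 587 over all genes, 9 members (3 higher) and 7 partner genes. With no filter 2462 of 30524 genes passed. With limma-voom 5 members were higher. On log2(FPKM + 1) values 1060 genes, 5 higher members and 11 partner genes passed, and on log2(FPKM + 0.1) values 5 higher members and 11 partner genes. Without control 1 and 2 together, with the lone control assumed to vary like the others, 289 genes, 7 members (3 higher, 4 lower) and 3 partner genes passed. Leaving out each library in turn gave 538 to 1877 genes, 7 to 23 members (3 to 13 higher, 4 to 10 lower) and 5 to 21 partner genes.

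The replicate block left 1504 genes, 15 members and 19 partner genes. Under it Efnb3 (adjusted p = 0.0680), Epha8 (0.0525) and Robo3 (0.0538) lost their calls. Same-numbered libraries correlated at -0.024, 0.061 and 0.029 in their deviations from the diet means, so the mice were treated as unpaired, and control 1 and control 2 correlated best with another number. Members that did not pass changed sign only with libraries left out, one at a time over -0.124 to 0.091 for Dcc, -0.033 to 0.104 for Efna2, -0.060 to 0.019 for Efna3, -0.128 to 0.028 for Flrt2, -0.145 to 0.073 for Ntn4, -0.314 to 0.021 for Unc5b and -0.017 to 0.150 for Unc5c, and without control 1 and 2 together to 0.031 for Flrt2 and 0.207 for Ntn4. The cause was not tested. Epha1 and Efna4 were removed by the count filter, and no change is given for them.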
